A study of Mus musculus with 9 samples.

Results

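Chemokines are small secreted proteins that direct the migration of leukocytes, and their receptors are G protein-coupled receptors on the cells that respond. The set described here holds every row of the deposited expression table whose Ensembl identifier maps to a mouse symbol beginning with Ccl, Cxcl, Cx3cl, Xcl, Ccr, Cxcr, Cx3cr, Xcr or Ackr followed by a digit. Pseudogene and antisense rows were left out (2 rows). The rule gave 61 genes of 52550 rows, namely 38 ligands, 19 signalling receptors and 4 atypical receptors, which bind chemokines without G protein signalling. No measured value entered the rule.

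The table covers 9 RNA-seq libraries whose labels name 4T1 cells, a mammary carcinoma line derived from a BALB/c mouse. They form 3 groups of 3 libraries: a control group, a group treated with PD-1 and a group treated with LY500307 and PD-1. LY500307 activates estrogen receptor beta. PD-1 is an inhibitory receptor of T cells that checkpoint antibodies block. The labels do not state the agent that acts on PD-1, doses, times, or whether the cells came from culture or tumours. Nothing states that separate cultures or animals were used within a group, so p-values measure only how far these libraries differ, which may be technical. PD-1 replicates 2 and 3 have treatment labels in which the replicate number is part of the treatment's name, and they were placed by title. The unit was read as FPKM, in which fragments are scaled to transcript length and library size. The table holds no counts, and the depth of each library is unknown.

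Markers of other cell types than carcinoma cells were present in every library. The 6 epithelial markers checked for the 4T1 label were above 0 in every library and summed to between 1356 and 3757 FPKM. The 10 monocyte and macrophage markers summed to between 741 and 2403 FPKM, the 8 neutrophil markers to between 54.6 and 705, and the 13 T and NK cell markers to between 35.3 and 105. The 6 dendritic cell markers summed to between 10.2 and 24.0 FPKM, the 6 fibroblast markers to between 157 and 519 and the 5 erythroid markers to between 25.1 and 137. The 4 markers of lymphatic endothelium summed to between 8.31 and 20.6 FPKM and the 4 of megakaryocytes and platelets to between 4.46 and 6.76. Most of the first sum was Pdpn, at 6.39 to 17.8 FPKM, whereas Prox1 was at 0 in some libraries and at most 0.0484. Most of the second was Itgb3, at 2.83 to 5.07 FPKM, and Gp9 was at 0 in some libraries. These 2 sums thus rest mainly on 1 gene each. The 4 B cell markers summed to no more than 1.19 FPKM in any library, and Ms4a1 was at 0 in 8 of 9. In such RNA, fewer cells of a type and less RNA per cell cannot be told apart. The part of cell composition in the values below was not tested.

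As background, chemokines are grouped by their cysteine motif into the CC, CXC, CX3C and XC families, and each family has its receptors. Inflammatory chemokines are induced at sites of injury and in tumours, where CXC ligands of Cxcr2 attract neutrophils, ligands of Ccr2 attract monocytes, and interferon-induced ligands of Cxcr3 attract activated T and NK cells. Homeostatic chemokines such as Cxcl12, Cxcl13, Ccl19 and Ccl21 organise lymphoid tissue and bone marrow.

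More of the ligands than of the receptors reached appreciable levels. Of the 38 ligands, 25 were above 0 in all 9 libraries and 24 reached 1 FPKM in at least 3 libraries, the level required for testing. Of the 19 receptors, 13 were above 0 in all libraries and 9 reached that level, as did 1 of the 4 atypical receptors. A mean of 10 FPKM or more was reached by 14 ligands, by the receptors Ccr1 and Cxcr4 and by the atypical receptor Ackr3. The 27 members that were not tested had means of no more than 0.806 FPKM, the highest being Cxcl12. The lowest mean among the 34 tested was 1.28 FPKM, for Ccl11. Ccl19, Ccl20, Ccl21b and Ccl26 were listed at 0 in every library.

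**Figure D1:**
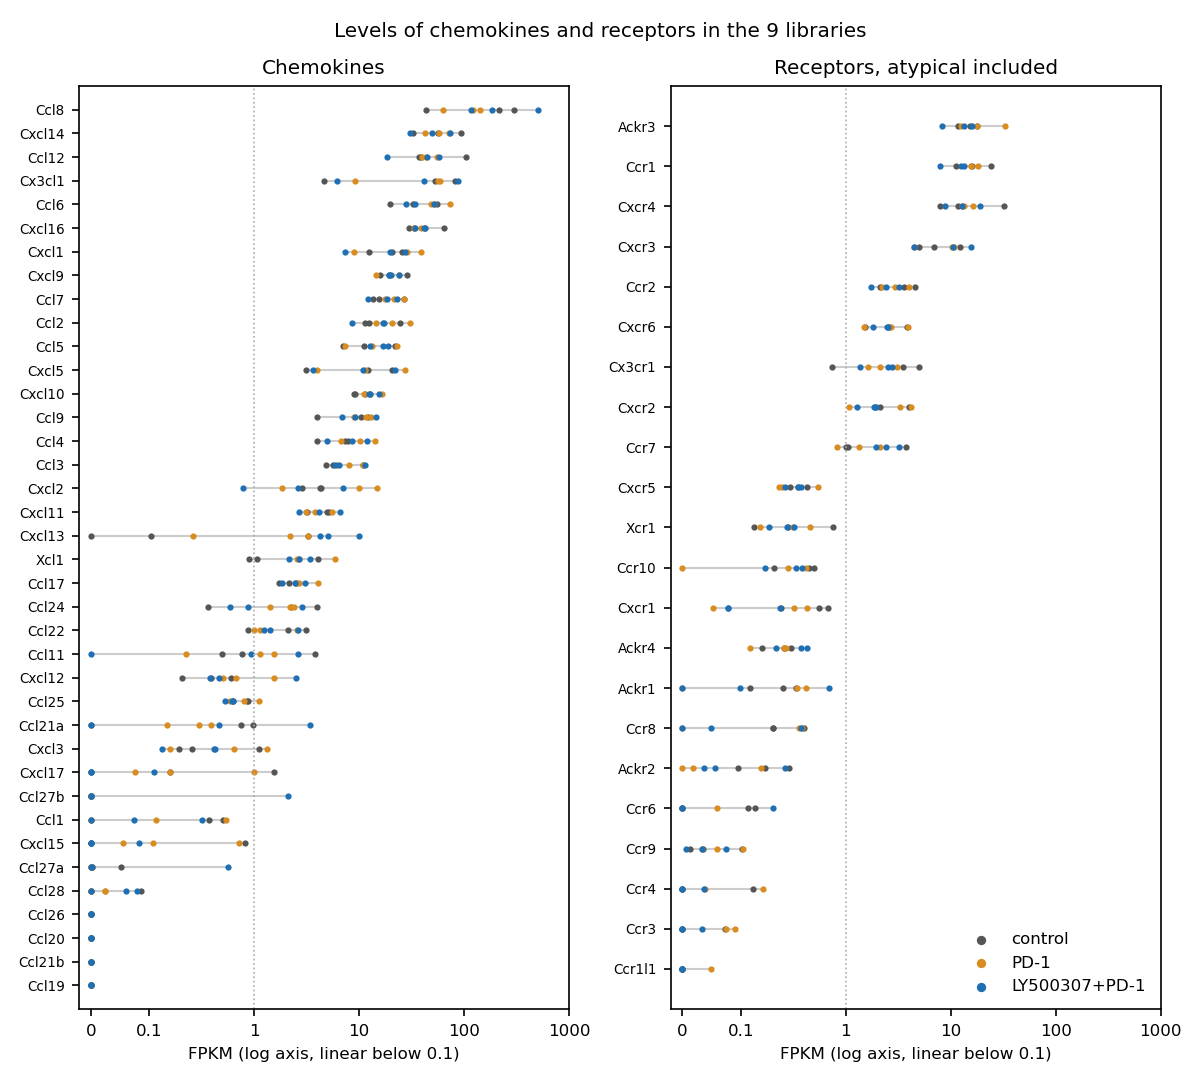
FPKM of the chemokine and receptor genes (log axis, linear below 0.1), with ligands and receptors in separate panels ordered by mean, a point per library coloured by group and a dotted line at 1 FPKM. Ccl8 stands highest among the ligands, and Ackr3, Ccr1 and Cxcr4 highest among the receptors; points of the 3 groups are mixed in most rows.

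No member passed an adjusted p under 0.05 in any of the 3 comparisons (0 of 34 tested), and nor did any other gene (0% of 13990). The largest fold change was that of Cxcl13, an attractant of B cells, at 6.43 ± 3.12 FPKM in LY500307+PD-1 against 1.12 ± 1.86 FPKM in control (SD, n = 3 each). Cxcl10, an interferon-induced attractant of T cells, stood at 13.5 ± 1.70 FPKM and 9.82 ± 1.32 FPKM in the same groups. The SD of log2(FPKM + 1) within groups was 1.82 for Cx3cl1 and 1.21 for Cxcl5, above their log2 fold changes in each comparison.

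Ccl8, which in the mouse signals through Ccr8, had the highest mean of all members and ranged widely within each group. Its level was 43.0, 215 and 298 FPKM in control, 62.3, 142 and 121 in PD-1, and 183, 507 and 117 in LY500307+PD-1. The lowest library was control 1 and the highest LY500307+PD-1 2, and the groups overlapped. Cxcl14, a chemokine of epithelia, had the second place among the ligands with 92.7, 56.6 and 32.7 FPKM in control, 72.2, 57.6 and 42.1 in PD-1, and 30.6, 72.6 and 49.7 in LY500307+PD-1. Control 1 was highest and LY500307+PD-1 1 lowest.

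Ccl8 lies in a cluster on chromosome 11 (GRCm38, chr11:82035571-82305690) with Ccl2, Ccl7, Ccl11, Ccl12 and Ccl1. The neighbours did not share its order of libraries. Ccl12, a ligand of Ccr2, gave 38.7, 37.3 and 104 FPKM in control, 39.4, 43.0 and 54.7 in PD-1, and 57.6, 18.5 and 44.8 in LY500307+PD-1. Its lowest library was LY500307+PD-1 2, the library that was highest for Ccl8.

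Ccr2 is the main receptor of inflammatory monocytes, and neither it nor its ligands passed the test in any comparison. Ccl2, the main monocyte attractant of this cluster, had 12.5, 11.3 and 24.8 FPKM in control, 20.5, 14.4 and 30.2 in PD-1, and 17.0, 8.53 and 17.2 in LY500307+PD-1. Ccl7, another attractant of monocytes, had 13.4, 15.3 and 26.5 FPKM in control, 21.4, 17.6 and 26.8 in PD-1, and 18.5, 12.1 and 23.0 in LY500307+PD-1. LY500307+PD-1 2 was lowest for both, followed by controls 1 and 2, and PD-1 3 was highest. The receptor Ccr2 had 4.58, 2.11 and 3.58 FPKM in control, 2.92, 4.00 and 2.23 in PD-1, and 2.39, 3.21 and 1.76 in LY500307+PD-1. With PD-1 against control, log2 fold changes were 0.43 (SE 0.37) for Ccl2, 0.28 (SE 0.29) for Ccl7, -0.23 (SE 0.47) for Ccl12 and -0.11 (SE 0.26) for Ccr2. With LY500307+PD-1 against control they were -0.15 (SE 0.37) for Ccl2, -0.03 (SE 0.29) for Ccl7, -0.54 (SE 0.47) for Ccl12 and -0.34 (SE 0.26) for Ccr2. Between the treated groups, LY500307+PD-1 against PD-1, they were -0.58 (SE 0.37) for Ccl2, -0.31 (SE 0.29) for Ccl7, -0.31 (SE 0.47) for Ccl12 and -0.23 (SE 0.26) for Ccr2. Fold changes refer to log2(FPKM + 1), so those of low genes are understated, and standard errors come from limma.

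A second cluster on chromosome 11 (chr11:83525778-83664683) holds Ccl5, Ccl9, Ccl6, Ccl3 and Ccl4, all of which were tested. Ccl6 and Ccl9 are CC chemokines of rodents that act on Ccr1. Ccl6 measured 55.8, 19.8 and 32.7 FPKM in control, 51.2, 48.1 and 73.0 in PD-1, and 33.7, 51.2 and 28.0 in LY500307+PD-1. The PD-1 libraries averaged 57.4 ± 13.6 FPKM (SD, n = 3) against 36.1 ± 18.2 FPKM in control (SD, n = 3) and 37.7 ± 12.1 FPKM in LY500307+PD-1 (SD, n = 3), with overlap between all groups. Ccl9 measured 12.1, 3.98 and 10.4 FPKM in control, 11.6, 8.91 and 12.9 in PD-1, and 9.12, 14.4 and 6.91 in LY500307+PD-1. For both genes PD-1 3 was high and control 2 lowest.

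Ccl3, Ccl4 and Ccl5 are inflammatory CC chemokines that attract monocytes, macrophages and effector T cells. Ccl3 gave 4.78, 5.69 and 11.0 FPKM in control, 7.95, 6.10 and 10.9 in PD-1, and 5.84, 6.39 and 11.3 in LY500307+PD-1. Ccl4 gave 3.99, 7.76 and 7.33 FPKM in control, 10.3, 6.76 and 14.1 in PD-1, and 8.52, 4.96 and 11.95 in LY500307+PD-1. Each was lowest in control 1, and control 3, PD-1 3 and LY500307+PD-1 3 led for Ccl3 with 10.9 to 11.3 FPKM. Ccl5, a product of activated T and NK cells among others, gave 7.01, 11.1 and 21.99 FPKM in control, 13.4, 23.0 and 7.28 in PD-1, and 12.8, 16.7 and 19.0 in LY500307+PD-1. It was highest in PD-1 2 and lowest in control 1, followed closely by PD-1 3, so that the PD-1 libraries spanned nearly the whole range. PD-1 against control gave log2 fold changes of 0.23 (SE 0.33) for Ccl3, 0.62 (SE 0.35) for Ccl4, 0.12 (SE 0.44) for Ccl5 and 0.75 (SE 0.36) for Ccl6. The corresponding values for LY500307+PD-1 against control were 0.14 (SE 0.33) for Ccl3, 0.34 (SE 0.35) for Ccl4, 0.38 (SE 0.44) for Ccl5 and 0.14 (SE 0.36) for Ccl6. Against PD-1, LY500307+PD-1 gave -0.09 (SE 0.33) for Ccl3, -0.28 (SE 0.35) for Ccl4, 0.26 (SE 0.44) for Ccl5 and -0.62 (SE 0.36) for Ccl6.

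Cxcl1, Cxcl2 and Cxcl5 attract neutrophils through Cxcr2 and lie together on chromosome 5 (chr5:90759360-90905938) with Cxcl3 and Cxcl15. The level of Cxcl1 was 12.3, 20.6 and 25.3 FPKM in control, 28.7, 8.997 and 38.6 in PD-1, and 19.6, 7.40 and 27.2 in LY500307+PD-1. For Cxcl2 it was 2.88, 4.36 and 4.21 FPKM in control, 10.02, 1.86 and 14.8 in PD-1, and 2.62, 0.787 and 6.98 in LY500307+PD-1, with PD-1 3 and PD-1 1 at the top and PD-1 2 near the bottom. Cxcl5 had 3.14, 12.3 and 20.6 FPKM in control, 11.4, 3.96 and 27.1 in PD-1, and 10.8, 3.61 and 21.9 in LY500307+PD-1. PD-1 3 was the highest library for all 3 genes, and PD-1 2 and LY500307+PD-1 2 were among the 3 lowest for each. Cxcl3 was low throughout, with 1.11, 0.253 and 0.191 FPKM in control, 0.643, 0.159 and 1.34 in PD-1, and 0.414, 0.134 and 0.422 in LY500307+PD-1, and was not tested. The receptor Cxcr2 had 1.88, 2.12 and 3.99 FPKM in control, 3.27, 1.08 and 4.18 in PD-1, and 1.28, 1.95 and 1.86 in LY500307+PD-1.

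None of the 3 tested ligands or the receptor passed the test in any comparison. Their log2 fold changes in PD-1 against control were 0.21 (SE 0.58) for Cxcl1, 0.73 (SE 0.67) for Cxcl2, 0.18 (SE 0.82) for Cxcl5 and 0.011 (SE 0.34) for Cxcr2. In LY500307+PD-1 against control they were -0.21 (SE 0.58) for Cxcl1, -0.36 (SE 0.67) for Cxcl2, 0.02 (SE 0.82) for Cxcl5 and -0.41 (SE 0.34) for Cxcr2. Between the treated groups, LY500307+PD-1 against PD-1, they were -0.42 (SE 0.58) for Cxcl1, -1.09 (SE 0.67) for Cxcl2, -0.16 (SE 0.82) for Cxcl5 and -0.42 (SE 0.34) for Cxcr2.

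Among 8 neutrophil markers, S100a8 and S100a9, the subunits of calprotectin, made up most of the summed level and followed these ligands across libraries. The sum was 186, 261 and 342 FPKM in control, 477, 105 and 705 in PD-1, and 193, 54.6 and 434 in LY500307+PD-1. Its order over the 9 libraries was the order of Cxcl1, and so was that of S100a9, which made up 465 of the 705 FPKM in PD-1 3. The order of S100a8 was that of Cxcl2. Other markers of the list stood in other orders. Of these, Retnlg and Mmp8 were still highest in PD-1 3, at 20.2 and 2.98 FPKM. Both were lowest in LY500307+PD-1 2, at 1.54 and 0.0966 FPKM. Ltf was highest in control 3 at 80.7 FPKM and at 4.66 in PD-1 3, Csf3r was highest in control 3 at 15.3, Camp in control 1 at 1.33 and Ly6g in PD-1 2 at 0.490. Camp, Ltf and Ly6g were at 0 in some libraries. These matches were seen after the values, over 9 libraries, and the part of neutrophils in the levels of the ligands was not tested.

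**Figure D2:**
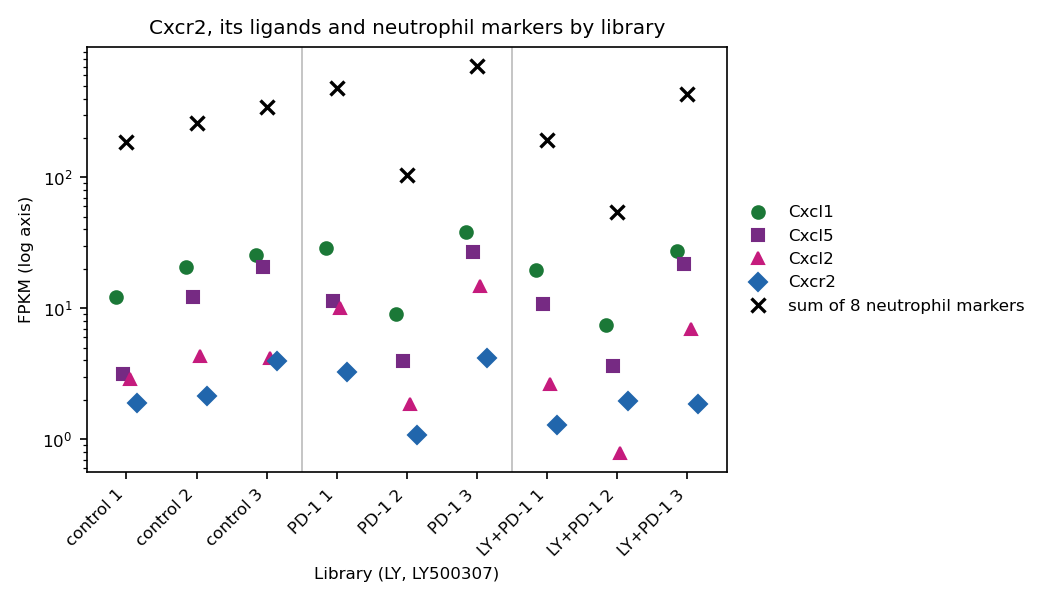
FPKM (log axis) of Cxcl1, Cxcl2, Cxcl5 and their receptor Cxcr2 with the summed FPKM of 8 neutrophil markers in each of the 9 libraries. PD-1 3 is highest for the 3 ligands and for the marker sum of 705 FPKM, and LY500307+PD-1 2, with a marker sum of 54.6 FPKM, is lowest for Cxcl1 and Cxcl2.

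Promoters of 5 chosen ligands, Cxcl1, Cxcl2, Cxcl9, Cxcl10 and Cxcl13, are shown to set the stretch before each start side by side. Others of the same sections, such as Cxcl5 and Cxcl11, are not shown. Apart from Ccl9, every tested member with a match to the NF-kB type motif below is among the 5, so they do not stand for all members. Each is 250 bases before the RefSeq start of the gene on the gene's own strand, 5′ to 3′, on GRCm38.p6. These starts differ from the GENCODE positions used elsewhere for some genes. The Cxcl2 stretch ends at 90903898, whereas its GENCODE gene starts at 90903871. Of the 61 members, 46 had a promoter entry. Capitals mark matches on either strand to an NF-kB type motif (GGG, any 2 bases, TT, any base, CC) or, in Cxcl10 farther from the start, to an interferon-stimulated response element (GAAA, any 2 bases, GAAA).
Cxcl1, chr5:90890995-90891244, plus strand: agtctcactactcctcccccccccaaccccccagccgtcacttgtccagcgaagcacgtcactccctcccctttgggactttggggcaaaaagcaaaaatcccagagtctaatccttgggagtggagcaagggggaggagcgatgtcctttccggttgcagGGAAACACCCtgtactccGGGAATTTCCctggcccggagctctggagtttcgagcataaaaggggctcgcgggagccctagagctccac
Cxcl2, chr5:90903649-90903898, plus strand: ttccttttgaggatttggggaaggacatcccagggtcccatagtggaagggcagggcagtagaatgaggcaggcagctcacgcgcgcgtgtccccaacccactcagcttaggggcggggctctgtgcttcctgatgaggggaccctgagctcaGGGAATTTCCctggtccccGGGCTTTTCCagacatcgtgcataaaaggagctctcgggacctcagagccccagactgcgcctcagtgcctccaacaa
Cxcl9, chr5:92328080-92328329, minus strand: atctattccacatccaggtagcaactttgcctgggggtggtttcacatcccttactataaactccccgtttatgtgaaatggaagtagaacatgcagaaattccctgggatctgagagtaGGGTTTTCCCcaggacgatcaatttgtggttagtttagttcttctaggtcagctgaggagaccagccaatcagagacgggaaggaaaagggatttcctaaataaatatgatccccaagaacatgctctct
Cxcl10, chr5:92348890-92349139, minus strand: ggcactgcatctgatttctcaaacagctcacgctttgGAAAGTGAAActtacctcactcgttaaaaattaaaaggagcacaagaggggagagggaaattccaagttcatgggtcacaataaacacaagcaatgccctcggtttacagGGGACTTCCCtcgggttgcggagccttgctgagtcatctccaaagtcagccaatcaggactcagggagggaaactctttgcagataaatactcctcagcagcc
Cxcl13, chr5:95956689-95956938, plus strand: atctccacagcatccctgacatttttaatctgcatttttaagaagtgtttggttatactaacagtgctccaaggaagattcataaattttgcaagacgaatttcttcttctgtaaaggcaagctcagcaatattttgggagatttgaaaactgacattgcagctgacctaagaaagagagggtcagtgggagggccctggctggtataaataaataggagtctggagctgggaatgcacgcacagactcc

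The promoters of Cxcl1 and Cxcl2 each held a pair of matches to the NF-kB type motif, and the 10 bases GGGAATTTCC were present in both. In Cxcl1 they lay 71 to 62 bases before the start and in Cxcl2 97 to 88 bases before it. The other match of Cxcl1, GGAAACACCC, reads as the motif on the opposite strand. Cxcl9 held 1 match, GGGTTTTCCC, 130 to 121 bases before the start. Cxcl10 held GGGACTTCCC 103 to 94 bases and the interferon element GAAAGTGAAA 213 to 204 bases before the start. Cxcl13 held neither motif in this window. The matches did not overlap one another. Among the 23 tested members with a promoter entry, 5 (21.7%) held the NF-kB type motif and 2 (8.7%) the interferon element. Of all 32851 promoter entries of the same length, 4.11% held the first and 2.98% the second. A gamma-activated site, TTCNNNGAA, was matched in 2 of the 23 members (Ccl17 and Cxcl14) and in 7.02% of all entries. Only these letters were searched, and other forms of an NF-kB type motif were not. The bases gggaaattcc in Cxcl10 differ from the letters at the TT and so stay in lower case. The counts and shares hold for these letters alone. A match is a description of letters and no evidence of binding.

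Cxcl9, Cxcl10 and Cxcl11 attract activated T and NK cells through Cxcr3 and are induced by interferon gamma. They lie side by side on chromosome 5 (chr5:92321347-92365485). Cxcl10 varied least within groups of all tested members, with 9.03, 9.09 and 11.3 FPKM in control, 12.6, 16.4 and 11.1 in PD-1, and 12.4, 15.5 and 12.8 in LY500307+PD-1. All 3 LY500307+PD-1 libraries and 2 of the 3 PD-1 libraries lay above the highest control. The means were 9.82 ± 1.32 FPKM in control, 13.4 ± 2.72 FPKM in PD-1 and 13.5 ± 1.70 FPKM in LY500307+PD-1 (SD, n = 3 each). The log2 fold change was 0.43 (SE 0.16) for LY500307+PD-1 against control, with a 95% interval of 0.06 to 0.79, and 0.40 (SE 0.16) for PD-1 against control. The limma unadjusted p-values were 0.0262 and 0.0333, and both adjusted p-values over all 13990 genes were 1.00.

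Its neighbours did not share that pattern. Cxcl9 had 19.1, 15.9 and 28.6 FPKM in control, 19.9, 24.1 and 14.6 in PD-1, and 19.4, 20.1 and 24.0 in LY500307+PD-1, with the highest library in control. Cxcl11, which the GENCODE annotation lists as a polymorphic pseudogene, had 4.90, 3.16 and 5.17 FPKM in control, 5.49, 3.13 and 3.79 in PD-1, and 4.15, 6.504 and 2.66 in LY500307+PD-1. The receptor Cxcr3 had 12.4, 6.99 and 4.97 FPKM in control, 10.7, 10.3 and 4.43 in PD-1, and 4.43, 15.7 and 10.6 in LY500307+PD-1, with libraries down to between 4.43 and 4.97 FPKM in each group. In PD-1 against control the log2 fold changes were -0.10 (SE 0.23) for Cxcl9, -0.08 (SE 0.28) for Cxcl11 and 0.05 (SE 0.47) for Cxcr3. For LY500307+PD-1 against control they were 0.03 (SE 0.23) for Cxcl9, -0.03 (SE 0.28) for Cxcl11 and 0.24 (SE 0.47) for Cxcr3. For LY500307+PD-1 against PD-1 they were 0.13 (SE 0.23) for Cxcl9, 0.02 (SE 0.16) for Cxcl10, 0.05 (SE 0.28) for Cxcl11 and 0.19 (SE 0.47) for Cxcr3.

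Beside Cxcl10, the summed level of 9 genes of the interferon gamma response was 326, 366 and 371 FPKM in control, 372, 435 and 419 in PD-1, and 459, 405 and 467 in LY500307+PD-1. The sums of both treated groups lay above those of the control libraries, PD-1 1 by a narrow margin. Gbp2 was the largest part of the sum, at 101 to 177 FPKM. Of the 9 genes, 7 were higher and 2 lower in PD-1 against control, and 9 were higher in LY500307+PD-1 against control. In each of these comparisons the groups did not overlap for 3 of the 9, against 6.68% and 7.94% of all genes. The list of 9 was written with earlier results of these data known, so these counts describe the list and test nothing. None of the 9 passed the adjusted threshold against control. The T and NK cell markers summed to 35.3, 59.3 and 89.6 FPKM in control, 82.1, 86.0 and 105 in PD-1, and 86.7, 41.4 and 90.5 in LY500307+PD-1, with overlap between the groups. The part of these in the Cxcl10 values was not tested.

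Cxcl13 had the largest fold change of the set. The chemokine attracts B cells and follicular helper T cells through Cxcr5 and organises lymphoid follicles (ENSMUSG00000023078.6, chr5:95956951-95961068 on GRCm38). Its level was 0, 0.104 and 3.27 FPKM in control, 0.264, 3.23 and 2.20 in PD-1, and 4.21, 5.09 and 10.004 in LY500307+PD-1. All 3 LY500307+PD-1 libraries lay above every control and every PD-1 library, whereas control and PD-1 overlapped. The means were 1.12 ± 1.86 FPKM in control, 1.90 ± 1.51 FPKM in PD-1 and 6.43 ± 3.12 FPKM in LY500307+PD-1 (SD, n = 3 each). The log2 fold change was 2.07 (SE 0.63) for LY500307+PD-1 against control, with a 95% interval of 0.65 to 3.49, and 1.45 (SE 0.63) against PD-1, with an interval of 0.03 to 2.87. For PD-1 against control it was 0.62 (SE 0.63). The limma unadjusted p-values were 0.00929 for the first and 0.0460 for the second, and both adjusted p-values were 1.00. With a pseudocount of 0.1 the first fold change was 3.90, and without PD-1 replicate 1 the second was 0.94.

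The receptor Cxcr5 was low, with 0.428, 0.294 and 0.353 FPKM in control, 0.543, 0.230 and 0.245 in PD-1, and 0.347, 0.373 and 0.263 in LY500307+PD-1, and was not tested. B cell markers were near 0 in all groups, with sums of 0.322 to 1.04 FPKM in control, 0.560 to 1.14 in PD-1 and 0.424 to 1.19 in LY500307+PD-1. Endothelial markers were lower beside the higher Cxcl13, with sums of 48.5 to 73.6 FPKM in control, 40.9 to 57.5 in PD-1 and 30.8 to 40.9 in LY500307+PD-1. Of the 5 tested, 5 were lower against control, 3 of them at an unadjusted p under 0.05, and 5 were lower against PD-1, 2 of them at that level. Erythroid markers were also lower, with sums of 54.1 to 91.0 FPKM in control, 82.1 to 137 in PD-1 and 25.1 to 66.3 in LY500307+PD-1. All 4 tested had an unadjusted p under 0.05 against PD-1 (median log2 fold change -1.36) and 0 of 4 against control (median -0.65). Epithelial markers had fold changes above 0 in 6 of 6 against PD-1 and in 5 of 6 against control, with 2 at an unadjusted p under 0.05 in each. Their sums overlapped between groups, with 2245, 1912 and 1583 FPKM in control, 1976, 2208 and 1356 in PD-1, and 1615, 3757 and 1621 in LY500307+PD-1. LY500307+PD-1 2 alone stood above every library of the other groups. Krt5, a keratin of basal epithelium, had 0.218, 0.0544 and 2.73 FPKM in control, 0.580, 0.577 and 0.134 in PD-1, and 11.5, 64.4 and 1.38 in LY500307+PD-1. Over all genes, an unadjusted p under 0.05 was reached by 4.01% in LY500307+PD-1 against control and by 2.84% against PD-1. The marker lists were written with earlier results of these data known. None of these markers passed the adjusted threshold, and their part in the Cxcl13 values was not tested.

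Cx3cl1, a membrane-anchored chemokine that attracts Cx3cr1-bearing monocytes and lymphocytes, had the widest spread of the set. Its level was 52.5, 4.61 and 82.8 FPKM in control, 56.8, 58.8 and 9.08 in PD-1, and 6.18, 41.1 and 86.8 in LY500307+PD-1. In each group 1 library stood far below the others: control 2, PD-1 3 and LY500307+PD-1 1 lay between 4.61 and 9.08 FPKM and the other 6 between 41.1 and 86.8. Ccl22 and Ccl17, which flank it on chromosome 8 (chr8:94745590-94812036), showed no such gap. The receptor Cx3cr1 had 3.55, 0.736 and 5.03 FPKM in control, 3.07, 2.13 and 1.65 in PD-1, and 2.75, 1.37 and 2.54 in LY500307+PD-1, and it was lowest in control 2.

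Ccl17 and Ccl22 attract regulatory and type 2 helper T cells through Ccr4. The level of Ccl17 was 2.48, 1.73 and 2.13 FPKM in control, 2.51, 2.66 and 4.06 in PD-1, and 2.47, 3.04 and 1.85 in LY500307+PD-1. All 3 PD-1 libraries lay above the controls, with 2.51 against 2.48 FPKM in the nearest libraries and means of 3.08 ± 0.852 FPKM and 2.11 ± 0.374 FPKM (SD, n = 3 each). Ccl22 had 2.10, 0.870 and 3.11 FPKM in control, 1.12, 2.55 and 1.01 in PD-1, and 1.25, 2.64 and 1.40 in LY500307+PD-1. Ccr4 was at or near 0, with 0.130, 0 and 0 FPKM in control, 0.0391, 0.164 and 0 in PD-1, and 0.0375, 0 and 0 in LY500307+PD-1. For PD-1 against control the log2 fold changes were 0.38 (SE 0.19) for Ccl17, -0.22 (SE 0.34) for Ccl22, 0.16 (SE 1.23) for Cx3cl1 and -0.17 (SE 0.42) for Cx3cr1. LY500307+PD-1 against control gave 0.14 (SE 0.19) for Ccl17, -0.09 (SE 0.34) for Ccl22, 0.03 (SE 1.23) for Cx3cl1 and -0.20 (SE 0.42) for Cx3cr1. LY500307+PD-1 against PD-1 gave -0.23 (SE 0.19) for Ccl17, 0.12 (SE 0.34) for Ccl22, -0.13 (SE 1.23) for Cx3cl1 and -0.03 (SE 0.42) for Cx3cr1.

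Cxcl16, a transmembrane chemokine that attracts Cxcr6-bearing T cells, had 30.0, 33.3 and 64.5 FPKM in control, 42.5, 38.6 and 33.0 in PD-1, and 42.3, 34.3 and 41.7 in LY500307+PD-1. Control 3 stood above the 8 other libraries. Cxcr6 had 2.60, 1.51 and 3.84 FPKM in control, 3.94, 2.72 and 1.49 in PD-1, and 1.83, 2.52 and 2.45 in LY500307+PD-1. Xcl1, which activated NK and CD8 T cells release to attract Xcr1-bearing dendritic cells, had 0.901, 1.05 and 4.04 FPKM in control, 2.55, 5.92 and 2.67 in PD-1, and 2.68, 2.13 and 3.40 in LY500307+PD-1. PD-1 2 was highest and control 1 lowest, and the groups overlapped. Xcr1, which was not tested, had 0.280, 0.134 and 0.749 FPKM in control, 0.314, 0.454 and 0.153 in PD-1, and 0.277, 0.184 and 0.319 in LY500307+PD-1. The log2 fold changes in PD-1 against control were -0.08 (SE 0.26) for Cxcl16, 0.02 (SE 0.29) for Cxcr6 and 0.73 (SE 0.40) for Xcl1. Those in LY500307+PD-1 against control were -0.03 (SE 0.26) for Cxcl16, -0.12 (SE 0.29) for Cxcr6 and 0.45 (SE 0.40) for Xcl1. Those in LY500307+PD-1 against PD-1 were 0.05 (SE 0.26) for Cxcl16, -0.14 (SE 0.29) for Cxcr6 and -0.28 (SE 0.40) for Xcl1.

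Cxcl12, which retains leukocytes in bone marrow through Cxcr4, was low while its receptors were high. Its level was 0.391, 0.204 and 0.597 FPKM in control, 0.675, 0.507 and 1.55 in PD-1, and 0.376, 2.496 and 0.464 in LY500307+PD-1, and it was not tested because 2 libraries alone reached 1 FPKM. Cxcr4 had 7.88, 11.6 and 31.8 FPKM in control, 12.7, 13.4 and 16.2 in PD-1, and 12.9, 8.80 and 18.9 in LY500307+PD-1, with control 3 standing above all others. Ackr3, an atypical receptor that takes up Cxcl12, had 15.3, 17.7 and 11.8 FPKM in control, 17.9, 12.4 and 33.1 in PD-1, and 8.21, 15.9 and 13.5 in LY500307+PD-1. PD-1 3 was highest and LY500307+PD-1 1 lowest for Ackr3. The log2 fold changes in PD-1 against control were -0.04 (SE 0.44) for Cxcr4 and 0.38 (SE 0.34) for Ackr3. They were -0.15 (SE 0.44) for Cxcr4 and -0.27 (SE 0.34) for Ackr3 in LY500307+PD-1 against control. They were -0.11 (SE 0.44) for Cxcr4 and -0.65 (SE 0.34) for Ackr3 in LY500307+PD-1 against PD-1.

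Ccr7, which guides dendritic cells and T cells to lymph nodes, was measured without 1 of its ligands, since Ccl19 was listed at 0 in every library. Ccl21a had 0, 0.976 and 0.744 FPKM in control, 0.385, 0.297 and 0.148 in PD-1, and 0.467, 3.42 and 0 in LY500307+PD-1, and was not tested. Its reads may be split with the near-identical Ccl21b, so its level is uncertain. Ccr7 had 1.01, 1.04 and 3.76 FPKM in control, 0.828, 2.10 and 1.33 in PD-1, and 1.96, 3.21 and 2.41 in LY500307+PD-1. Its log2 fold changes were -0.19 (SE 0.35) for PD-1 against control, 0.37 (SE 0.35) for LY500307+PD-1 against control and 0.56 (SE 0.35) for LY500307+PD-1 against PD-1. Ccr6, whose ligand Ccl20 was listed at 0 in every library, had 0, 0.116 and 0.136 FPKM in control, 0.0592, 0 and 0 in PD-1, and 0, 0 and 0.204 in LY500307+PD-1.

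Ccr1, a receptor of monocytes, macrophages and neutrophils, had the highest mean of the signalling receptors together with Cxcr4. Its level was 16.1, 11.2 and 24.2 FPKM in control, 18.2, 15.5 and 15.6 in PD-1, and 13.4, 7.93 and 12.4 in LY500307+PD-1. All 3 LY500307+PD-1 libraries lay below every PD-1 library, with means of 11.3 ± 2.93 FPKM and 16.4 ± 1.54 FPKM (SD, n = 3 each), and overlapped with control at 17.2 ± 6.54 FPKM (SD, n = 3). The log2 fold change was -0.53 (SE 0.27) for LY500307+PD-1 against PD-1, -0.53 (SE 0.27) for LY500307+PD-1 against control and -0.0019 (SE 0.27) for PD-1 against control. The limma unadjusted p of the first was 0.0768 and its adjusted p 1.00. The monocyte and macrophage markers summed to 1392, 741 and 2403 FPKM in control, 1408, 1483 and 1094 in PD-1, and 1458, 844 and 1341 in LY500307+PD-1, with overlap between the groups. Against PD-1, neutrophil markers were lower in 5 of 6 tested (median -0.67, 0 at an unadjusted p under 0.05), beside the lower endothelial (5 of 5, median -0.36) and erythroid (4 of 4) markers given above. The part of these markers in the Ccr1 values was not tested.

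**Figure D3:**
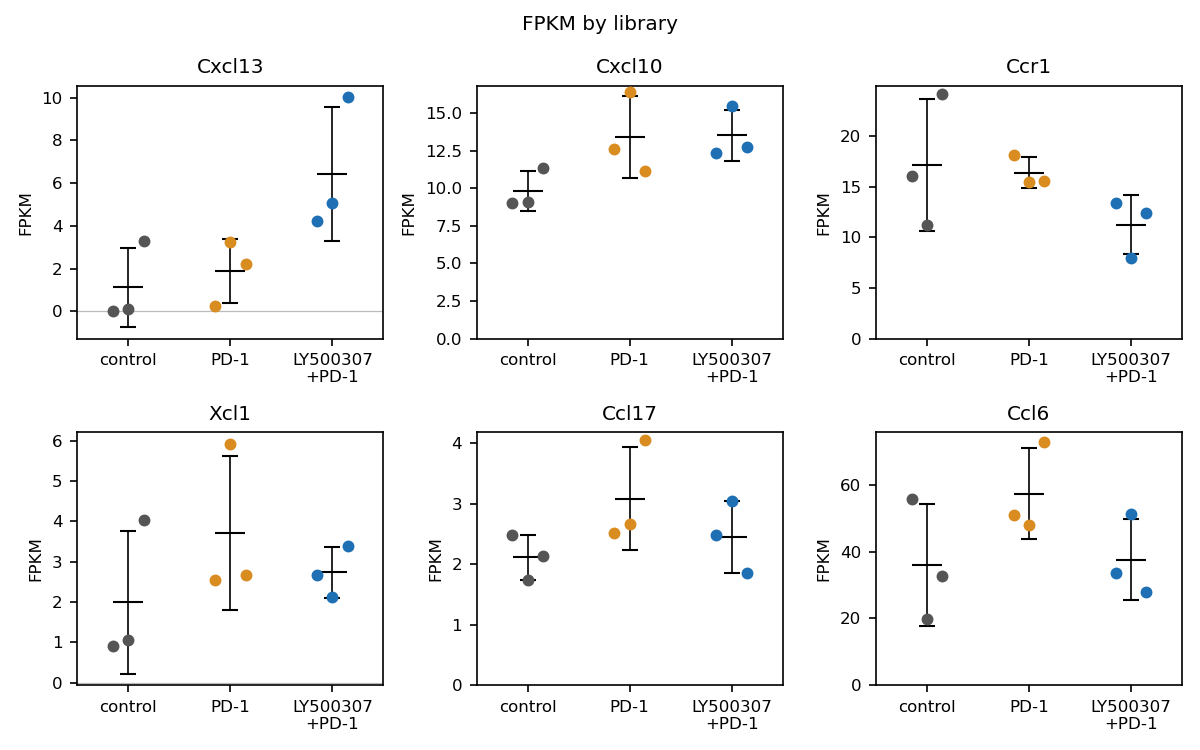
FPKM in each library (points) of Cxcl13, Cxcl10, Ccr1, Xcl1, Ccl17 and Ccl6 by group, with the mean (long bar) and SD of 3 libraries. The LY500307+PD-1 libraries of Cxcl13 lie at 4.21 FPKM or more, above all others, and those of Ccr1 lie below every PD-1 library.

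For PD-1 against control, 0 of 34 members passed the adjusted threshold, against 0% of all genes. At an unadjusted p under 0.05 there was 1 member, Cxcl10, which was higher, against 2.44% of all genes. In 1 member, Ccl17, the groups did not overlap, which is 2.94% of the members tested against 6.68% of all genes. The fold change was above 0 for 22 of the 34 and below 0 for 12, and its median was 0.10 beside -0.01 over all genes. The median was 0.20 for the 24 ligands. Without control replicate 3 the median of the members was 0.32.

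For LY500307+PD-1 against control, 0 of 34 members passed the adjusted threshold, against 0% of all genes tested. At an unadjusted p under 0.05 there were 2 members, Cxcl13 and Cxcl10, both higher, against 4.01% of all genes. The same pair did not overlap between groups, which is 5.88% of members beside 7.94% of all genes. Of the 34, 16 were higher and 18 lower, with a median of -0.03.

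For LY500307+PD-1 against PD-1, no member of the 34 passed the adjusted threshold, against 0% of all genes. In 1 member, Cxcl13, there was an unadjusted p under 0.05, against 2.84% of all genes. Cxcl13 was higher and Ccr1 lower without overlap, 5.88% of members beside 7.6% of all genes. Of the 34, 12 were higher and 22 lower, with a median of -0.15. The first 2 comparisons share the control libraries and the last shares libraries with each of them, so the 3 are not independent. Shares of members near or under those of all genes are not a result about the members.

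**Figure D4:**
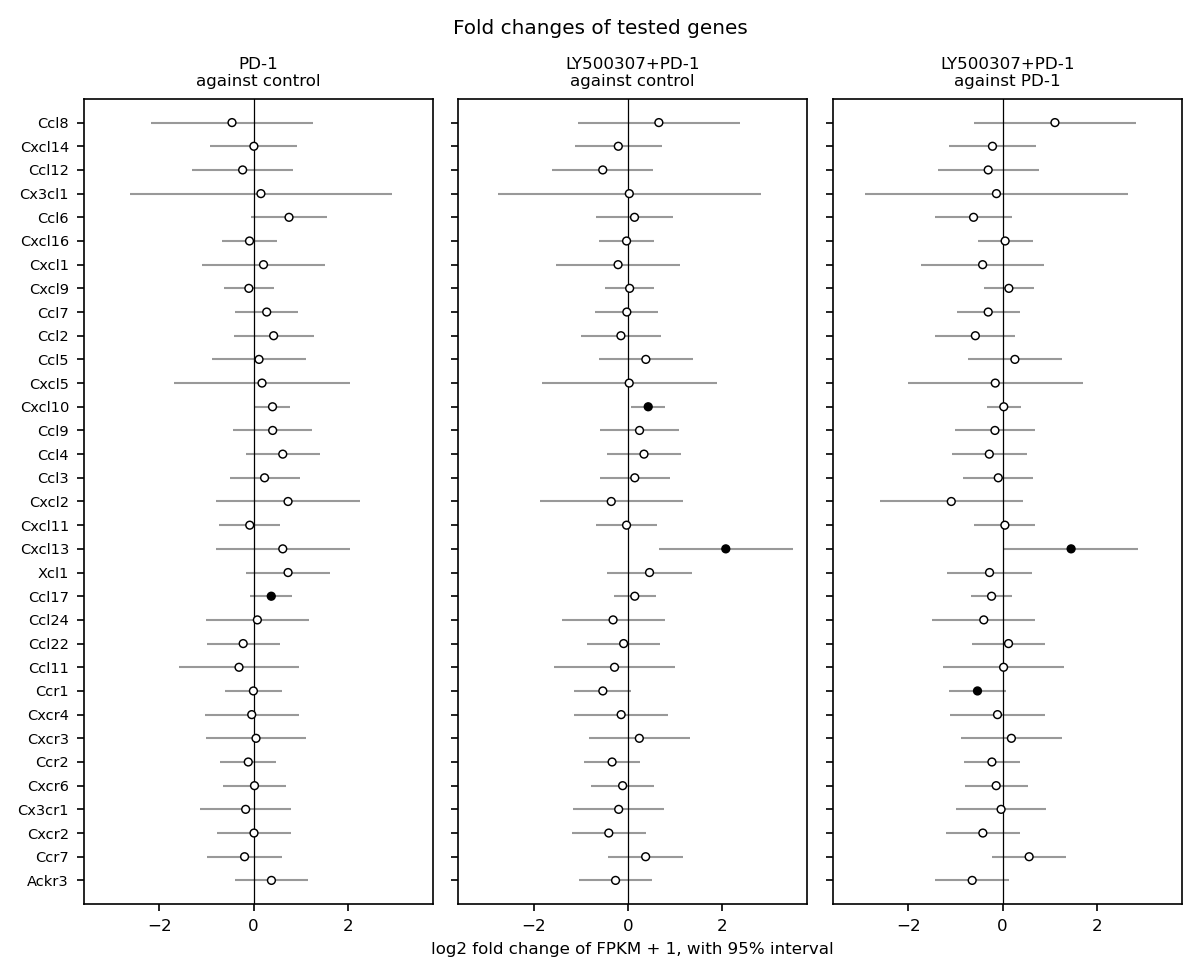
Log2 fold change of FPKM + 1 (points) with its 95% interval (bars) for tested members in the 3 comparisons; filled points are members whose groups did not overlap. Most bars cross 0, and Cxcl13 at 2.07 in LY500307+PD-1 against control lies farthest from it.

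The spread within groups was wide. The SD of log2(FPKM + 1) within groups had a median of 0.53 over the 34 tested members and 0.21 over all genes tested. It was above the median of all genes for 33 members, the exception being Cxcl10. The widest were Cx3cl1 at 1.82, Cxcl5 at 1.21, Ccl8 at 1.12, Cxcl2 at 0.99, Cxcl13 at 0.92 and Cxcl1 at 0.85. The members were not tested against other genes in this.

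Some libraries deviated in most members at once. Control 3 was above the gene's own mean for 26 of the 34 tested members and was the highest library for 9 and the lowest for 0. Control 2 was below the mean for 28 and was the highest for 0. The median deviation was 0.48 log2 in control 3 and -0.33 in control 2, whereas over all genes it ran from -0.01 to 0.03. PD-1 3 was the highest library for 10 members and control 1 the lowest for 11. Control 3 also had the highest and control 2 the lowest sum of monocyte and macrophage markers, and the part of these in the deviations was not tested.

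**Figure D5:**
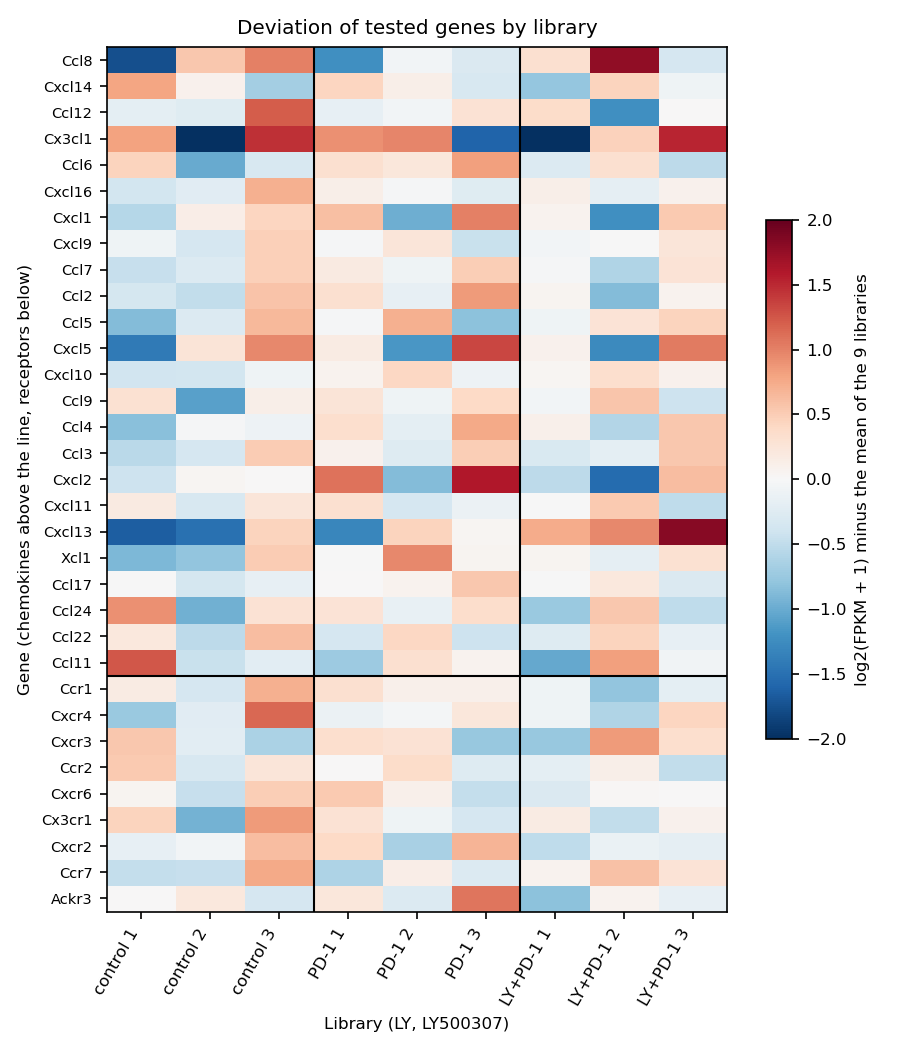
Deviation of tested members from their own mean over the 9 libraries, in log2(FPKM + 1), with libraries in columns and colours ending at 2 either way. Control 3 is mostly above and control 2 mostly below the mean, and Cx3cl1 falls far below it in 1 library of each group.

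The other members were low. Ccl11 and Ccl24, ligands of the eosinophil receptor Ccr3, passed the filter, with ranges of 0 to 3.79 and 0.359 to 4.01 FPKM. Ccl27b was above 0 in 1 library, LY500307+PD-1 2, at 2.08 FPKM. Its reads may be shared with the near-identical Ccl27a, so the value is uncertain.

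Genes that act with chemokines and receptors were read from a list of 59: proteins that bind them or belong to them under other symbols, G protein and kinase signalling, and desensitization. Of these, 53 were tested and 0 passed the adjusted threshold in any of the 3 comparisons. In PD-1 against control 19 were higher and 34 lower (median -0.03), 20 and 33 in LY500307+PD-1 against control (median -0.03), and 26 and 27 between the treated groups (median -0.01). At an unadjusted p under 0.05 there was 1 of the 53 in the first comparison, 1 in the second and 0 in the third. Over all genes the shares were 2.44%, 4.01% and 2.84%, so these counts are not a result about the partner genes. The smallest p-values in PD-1 against control were those of Rgs19 (log2 fold change 0.30, SE 0.13) and Rgs16 (0.39, SE 0.25), which speed the switching off of G proteins. In LY500307+PD-1 against control they were those of the cytokine receptor kinase Jak2 (-0.37, SE 0.15) and the adaptor Crk (1.35, SE 0.61). Crk lay at 7.28, 8.48 and 31.9 FPKM in control, 35.3, 34.2 and 8.46 in PD-1, and 34.6, 32.9 and 34.3 in LY500307+PD-1, so that 2 controls and 1 PD-1 library stood apart from the rest. Between the treated groups the smallest p-values were those of Rgs16 (-0.48, SE 0.25) and the Rac activator Tiam1 (0.28, SE 0.15).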

How the data were processed

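RNA of 9 libraries (3 groups of 3) was analysed from 1 deposited table. The labels' protocols give Trizol extraction, removal of ribosomal RNA and a stranded TruSeq kit. In the submitters' processing notes CASAVA 1.8, Bowtie2, DESeq2 and mm9 are listed with no role. For the counter, annotation and strand setting, the sources used here give nothing. Values the authors deposited were taken to be FPKM, since the values behave so and the table names no unit. Their identifiers are later than mm9, and names and positions come from GENCODE M21 on GRCm38.

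Between 22.1% and 25.5% of low values per library lay within 0.02 of a whole step, so neither whole reads nor the depth were recovered and no count test was run. The test covered 13990 genes with at least 1 FPKM in 3 or more libraries, by limma 3.58.1 (R 4.3.3, trend and robust) on log2(FPKM + 1) over all 9 libraries without covariates, with Benjamini-Hochberg adjustment and a threshold of 0.05. As a check of the code, the fit was run on simulated data with known changes. The share of these changes that it recovered is not given here, so the run does not show what the test may miss. Tables and figures used Python 3.11.15, numpy 2.4.6, pandas 2.3.3 and matplotlib 3.10.9.

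The member rule uses gene symbols alone and no measured value. It and the marker and partner lists were nevertheless chosen with earlier results of these data known. Values in every library are given for members with a mean of 10 FPKM or more, for the 4 with the smallest p in each comparison, for those of mean 1 or more whose groups did not overlap, and for chosen receptor-ligand pairs. Fold changes are given for the last 3 kinds where tested. The values of 1 member are not reported here, although totals and medians include it. Alternatives were quantile normalization, dropping the filter, a pseudocount of 0.1, fitting the 6 libraries compared, the replicate number as a block, and each library left out.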

Additional observations from a re-analysis of the deposited data

How the results depend on the processing

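Under quantile normalization, without the filter, with a pseudocount of 0.1, in the 6 libraries alone and with the replicate block, 0 genes passed the adjusted threshold in each comparison. Leaving out 1 library gave 0 to 1 gene in PD-1 against control, 0 to 2 in LY500307+PD-1 against control and 0 to 2 between the treated groups, none of them a member. Members called and partner genes called were 0 in all these fits. The labels give no shared origin for libraries of the same replicate number. Same-numbered deviations correlated at -0.12 to 0.27 and differently numbered ones at -0.36 to 0.26. With 3 libraries a group these values cannot decide whether the libraries are paired. When single libraries were left out, the median of the tested members ran from -0.013 to 0.32 in PD-1 against control, the highest without control replicate 3, from -0.18 to 0.17 in LY500307+PD-1 against control and from -0.21 to -0.11 between the treated groups.

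Of 84 log2 fold changes of members, 34 kept their sign in every alternative run, but 30 of these moved by over 1.5 times when a library was left out. The 4 that did not were Cxcl13 (1.70 to 2.74) and Cxcl10 (0.33 to 0.52) in LY500307+PD-1 against control, and Ccl6 (-0.86 to -0.43) and Ccr7 (0.38 to 0.76) between the treated groups. Of the 30, Ackr3 ran from 0.013 to 0.69 and Cxcl13 from 0.25 to 1.29 in PD-1 against control, Ackr3 from -0.45 to -0.010, Ccl5 from 0.023 to 0.78 and Ccl12 from -0.86 to -0.060 in LY500307+PD-1 against control, and Cxcl2 from -1.82 to -0.56 and Cxcl13 from 0.94 to 1.81 between the treated groups. The other 50 changed sign when a library was left out, and the cause was not tested. With PD-1 against control the ranges were -0.48 to 0.25 for Ccl12, -0.53 to 0.038 for Ccl22, -0.26 to 0.52 for Ccl5, -0.26 to 0.26 for Ccr1, -0.34 to 0.077 for Ccr2, -0.40 to 0.22 for Ccr7, -1.03 to 1.01 for Cx3cl1, -0.70 to 0.20 for Cx3cr1 and -0.19 to 0.80 for Cxcl1. It was -0.26 to 0.065 for Cxcl11, -0.29 to 0.25 for Cxcl16, -0.50 to 0.82 for Cxcl5, -0.27 to 0.13 for Cxcl9, -0.26 to 0.40 for Cxcr2, -0.21 to 0.41 for Cxcr3, -0.44 to 0.51 for Cxcr4 and -0.22 to 0.28 for Cxcr6 in the same comparison. For LY500307+PD-1 against control the range was -0.35 to 0.18 for Ccl2, -0.40 to 0.16 for Ccl22, -0.12 to 0.46 for Ccl3, -0.22 to 0.50 for Ccl6, -0.22 to 0.25 for Ccl7, -1.17 to 1.05 for Cx3cl1, -0.73 to 0.17 for Cx3cr1 and -0.58 to 0.29 for Cxcl1. It was -0.30 to 0.22 for Cxcl11, -0.24 to 0.30 for Cxcl16, -0.91 to 0.17 for Cxcl2, -0.65 to 0.64 for Cxcl5, -0.14 to 0.26 for Cxcl9, -0.12 to 0.69 for Cxcr3, -0.55 to 0.40 for Cxcr4 and -0.36 to 0.11 for Cxcr6 in the same comparison. Between the treated groups it was -0.63 to 0.16 for Ccl12, -0.091 to 0.39 for Ccl22, -0.36 to 0.10 for Ccl3, -0.54 to 0.017 for Ccl4, -0.13 to 0.64 for Ccl5, -0.98 to 0.90 for Cx3cl1, -0.18 to 0.17 for Cx3cr1, -1.02 to 0.083 for Cxcl1 and -0.091 to 0.17 for Cxcl10. It was -0.22 to 0.30 for Cxcl11, -0.043 to 0.15 for Cxcl16, -0.79 to 0.46 for Cxcl5, -0.052 to 0.29 for Cxcl9, -0.17 to 0.64 for Cxcr3, -0.37 to 0.15 for Cxcr4, -0.40 to 0.096 for Cxcr6 and -0.45 to 0.035 for Xcl1 in the same comparison. Ccr1 in PD-1 against control was 0.0037 under quantile normalization and 0.0015 with a pseudocount of 0.1, and Cxcr2 was -0.029 with that pseudocount.

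The depth of the libraries is unknown, so the counting error of low members cannot be given. With 3 libraries a group, the median standard error of a tested member was 0.36 log2, against 0.17 over all genes tested.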
